A study of Rattus norvegicus with 48 samples.

Results

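The serum miRNAs of WT rats given an anti-sclerostin antibody (4 libraries) were compared with those of WT rats given parathyroid hormone (PTH, 5 libraries). These 9 libraries of 48 in the series were chosen by 3 labels, the tissue (serum), the group (WT) and the treatment, and by no measured value. The WT animals are male Zucker lean rats (ZDF +/+), the non-diabetic controls of the ZDF fa/fa rats, whose leptin receptor is mutated. Treatment began at an age of 11 weeks, after a defect of 3 mm had been cut into the femur of every rat, and lasted 12 weeks on a high-fat, high-carbohydrate diet. The antibody was injected under the skin 2 times a week at 25 mg/kg, and PTH 5 times a week at 75 µg/kg, so the doses and schedules differed as well as the drugs. The rats of the 2 arms came from different earlier animal experiments, in WT and in ZDF rats alike, so the drug and the original experiment cannot be told apart. Both arms shared the defect, the diet and the age, and the placebo-treated WT rats (n = 5), which had received vehicle, gave the level without either drug.

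Sclerostin is a protein that osteocytes secrete to restrain Wnt signaling in bone-forming cells, and an antibody against it raises bone formation and lowers bone resorption. PTH, given intermittently, raises bone formation through its receptor on osteoblasts and osteocytes. Both are used to build bone. MiRNAs are short RNAs that repress mRNAs with sites matching their seed, the bases near the 5′ end, and many of them are found in serum in vesicles or bound to proteins, released by blood cells, liver, muscle and other tissues. In serum, release by fewer cells and release of less RNA per cell cannot be told apart.

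The comparison turned on the 10 miRNAs that ranked first by p-value, called leading below. The mature sequences of 8 of them are shown to make clear which molecules were counted. They were taken from RefSeq (assembly GRCr8), written 5′ to 3′ with the seed, bases 2 to 8, in capitals. Of the 166 miRNAs tested, 147 had a sequence there. MiR-30e-3p had no entry, and the sequence of miR-143-3p is not shown.
rno-miR-6216: gAUACACAgaggcaggaggagaa
rno-miR-3473: uCUAGGGCuggagagauggcua
rno-miR-100-5p: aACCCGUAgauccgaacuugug
rno-miR-224-5p: cAAGUCACuagugguuccguuu
rno-miR-450a-5p: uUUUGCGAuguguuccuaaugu
rno-miR-10a-5p: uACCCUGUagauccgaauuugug
rno-miR-27b-3p: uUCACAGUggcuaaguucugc
rno-miR-28-5p: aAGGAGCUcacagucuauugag
On GRCr8, which is not the build the reads were mapped to, they lie at chr3:65165595-65165617 (minus strand, miR-6216), chr13:42051730-42051751 (plus, miR-3473), chr8:50798307-50798328 (plus, miR-100-5p), chrX:155107183-155107204 (minus, miR-224-5p), chrX:137720985-137721006 (minus, miR-450a-5p), chr10:81779730-81779752 (plus, miR-10a-5p), chr17:1819163-1819183 (minus, miR-27b-3p) and chr11:89480303-89480324 (minus, miR-28-5p). No 2 of these 8 shared a seed. Among the other tested miRNAs, miR-99b-5p had the seed of miR-100-5p, and miR-27a-3p had the seed of miR-27b-3p. MiR-99a-5p, which was also tested and belongs to the same family as miR-100-5p, had no entry. Also tested were miR-10b-5p and miR-30a-3p, by name relatives of the leading miR-10a-5p and miR-30e-3p. The sequence of miR-27a-3p differed from that of miR-27b-3p by 1 base over the same length. The mapping of the reads allowed mismatches, so reads of such near-identical miRNAs could be assigned to either, and their single levels are uncertain. This includes the families of miR-100-5p, miR-10a-5p and miR-30e-3p.

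The depth of the libraries overlapped between the arms. Anti-sclerostin libraries held 47357 to 161686 miRNA reads, and PTH libraries held 53249 to 153860 (exact permutation p = 0.976, two-sided, where 4 against 5 libraries allow 0.00794 at the lowest). The log2 ratio of miR-451-5p, a red blood cell miRNA, to miR-23a-3p, which is read as a sign of hemolysis, had a mean of −0.45 ± 0.88 (SD) in the 4 anti-sclerostin rats and of 0.35 ± 1.13 (SD) in the 5 PTH rats. This difference of −0.79 had an exact permutation p of 0.278. Without PTH rat 5, the lowest of its arm at −1.55, the difference was −1.27 (exact permutation p = 0.0571). Without anti-sclerostin rat 3, the lowest of its arm at −1.58, the difference was −0.42 (exact permutation p = 0.589). These were the 2 ends of its range with each library left out. PTH rat 3 stood apart from all other libraries. Its levels correlated with those of the other libraries at a median r of 0.809 across 166 miRNAs, against 0.897 to 0.933 for the other 8 libraries, and it held the highest level of 46 miRNAs (27.7%) and the lowest of 45 (27.1%). It also had the fewest reads of the synthetic extraction controls, 62662 against 254053 to 1008421. Of the 47 named miRNAs with a tested value, 29 had a log2 fold change that moved by over 1.5 times or changed sign without it, and those of the leading miRNAs that did so are given with and without it.

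**Figure D1:**
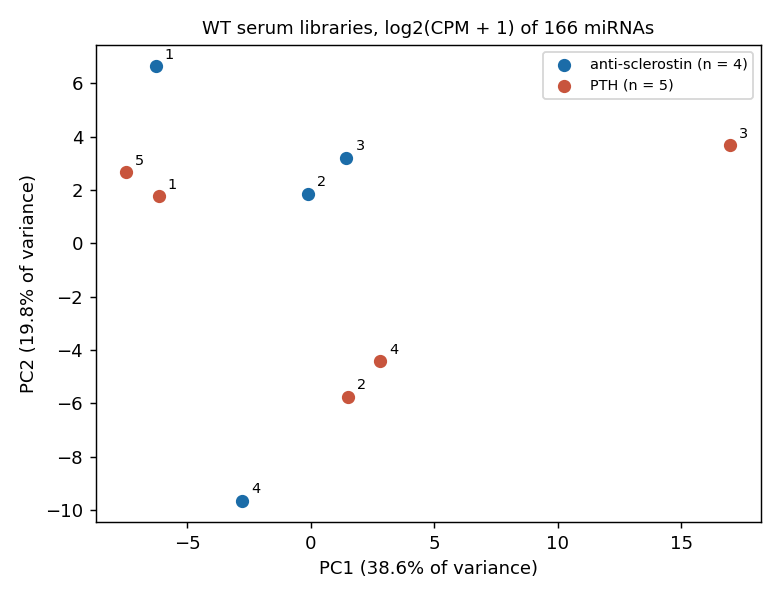
Principal components of the 9 libraries, from log2(CPM + 1) of the 166 miRNAs tested (CPM, reads scaled to library size by TMM). Each point is a library, colored by drug and numbered by rat, the x axis holds 38.6% and the y axis 19.8% of the variance. PTH rat 3 lies alone at 17.0 on the first component, and the other points of both arms are mixed.

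Correlations between libraries of the 2 drugs were close to those within each drug. The median Pearson r of log2 levels was 0.912 over the 20 pairs between drugs, 0.907 over the 6 pairs within anti-sclerostin and 0.897 over the 10 pairs within PTH. These values describe libraries that share the counted miRNAs, and pairs that share a library are not independent.

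No miRNA passed the test between anti-sclerostin and PTH. Of the 166 miRNAs tested with edgeR's quasi-likelihood test, 0 (0%) passed a false discovery rate (FDR, from Benjamini-Hochberg adjustment) of 0.2, and the lowest FDR was 0.977. Only 2 (1.2%) had an unadjusted p under 0.05 in edgeR, miR-143-3p and miR-6216, and DESeq2 also gave 0 calls, with 5 at an unadjusted p under 0.05. For no miRNA (0%) did the 2 arms lie apart without overlap. Of the log2 fold changes (log2FC, anti-sclerostin over PTH, from the edgeR fit), 84 were above and 82 below zero, with a median of 0.0074 and a median size of 0.30. The median spread between rats of one arm was 0.75 on the log2 scale. Taken as a difference of mean log2(CPM + 1), the distance between the arms was smaller than the within-arm SD for most miRNAs and larger for 13.

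These data did not show the arms to be equal either. The 95% interval of the log2FC lay between −1 and 1 for 23 miRNAs and reached beyond 1 of these limits for 143. The median half-width of the interval was 1.06, about a doubling or halving. The log2FC itself was beyond 1 in size for 11 miRNAs and beyond 0.5 for 46, and ran from −1.72 for miR-224-5p to 1.51 for miR-6216.

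**Figure D2:**
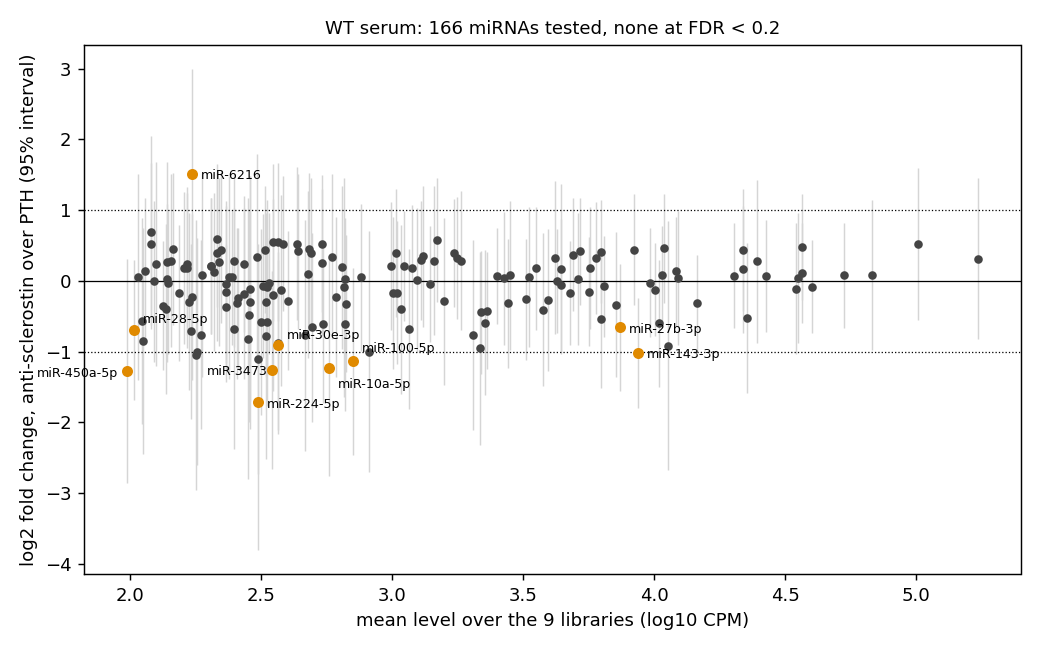
Log2 fold change of anti-sclerostin over PTH (y axis, with the 95% interval as a grey line) against the mean level over the 9 libraries (x axis, log10 CPM) for 166 miRNAs. The 10 leading miRNAs are orange and named, dotted lines mark −1 and 1, and most intervals cross at least 1 of them.

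MiR-143-3p had the smallest p-value. It is made from the same primary transcript as miR-145 and is abundant in smooth muscle and other mesenchymal cells. Its levels were 4152, 4959, 4924 and 8014 CPM in the 4 rats given anti-sclerostin. In the 5 rats given PTH they were 13029, 15838, 11824, 8776 and 6319 CPM. Only the highest anti-sclerostin rat lay above the lowest PTH rat, and the arms otherwise did not meet. The mean was 5512 ± 1709 CPM (SD, n = 4) against 11157 ± 3706 (SD, n = 5), a log2FC of −1.02 (standard error 0.36, 95% interval −1.79 to −0.24). The unadjusted p was 0.0136 and the FDR 0.977 in edgeR, and the exact permutation p was 0.0317. Over the 166 exact tests the lowest adjusted p was 0.976. Its log2FC stayed between −1.78 and −0.66 under every alternative tried, with an FDR from 0.626 to 0.999. The value nearest to zero was the one with the miR-451-5p to miR-23a-3p ratio as a covariate.

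Of miR-145, its cluster partner, one strand was near the detection limit. MiR-145-3p was counted at 1, 5, 4 and 1 reads under anti-sclerostin and at 11, 15, 13, 11 and 5 under PTH, and its low counts kept it out of the test. Every PTH library held at least as many reads as the highest anti-sclerostin library, but these reads were not scaled to depth. The 5 reads of anti-sclerostin rat 2 were among 85343 miRNA reads, and the 5 of PTH rat 5 among 153860. As shares of miRNA reads the arms therefore overlapped. MiR-145-5p ranged from 1589 to 5896 CPM under anti-sclerostin and from 1329 to 7866 under PTH, with the arms overlapping widely (log2FC −0.41, standard error 0.51, edgeR FDR 0.977). Its log2FC was −0.93 without anti-sclerostin rat 4 and −0.035 without PTH rat 2.

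Of the other 9 leading miRNAs, 8 had a lower fitted level under anti-sclerostin. MiR-6216 was the exception. It stood at 123, 783, 59.4 and 119.9 CPM under anti-sclerostin and at 81.8, 119, 51.1, 67.9 and 149.9 under PTH. Anti-sclerostin rat 2, with 75 reads against 3 to 19 in the others, set the log2FC of 1.51 (standard error 0.70, FDR 0.977), which was 0.059 without that rat.

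Both miR-100-5p, of the miR-99/100 family that targets mTOR, and miR-10a-5p, which lies in a HOX gene cluster, were highest in PTH rat 3. MiR-100-5p was at 288, 292, 660.1 and 439.7 CPM under anti-sclerostin and at 348, 833, 2368, 840.3 and 292 under PTH. MiR-10a-5p was at 192, 240.1, 614 and 239.8 CPM and at 501, 555, 2283, 433 and 126.2, in the same order. In each, 1 library lay far above the other 4 of the PTH arm. Their log2FC of −1.14 and −1.24 became −0.45 and −0.30 without PTH rat 3.

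A like dependence was seen for miR-224-5p and miR-3473. MiR-224-5p was at 54.8, 104, 224 and 139.9 CPM under anti-sclerostin and at 10.2, 476, 1363, 373 and 31.6 under PTH, so the PTH arm held both the lowest and the highest rats. MiR-3473 was at 123, 198, 145.2 and 319.8 CPM against 174, 409.8, 1107, 543 and 110.5. Their log2FC was −1.72 (standard error 0.98) and −1.26 (standard error 0.65), and without PTH rat 3 it was −0.71 and −0.68. Of the 10 miRNAs, 6 were highest in that rat.

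MiR-27b-3p, from the miR-23b/27b/24 cluster, was at 4289, 3884, 6238 and 8074 CPM under anti-sclerostin. Under PTH it was at 4919, 10193, 16032, 8632 and 4473 CPM. The arms overlapped, and the log2FC was −0.65 (standard error 0.42), or −0.33 without PTH rat 3. Its near-identical relative miR-27a-3p ranged from 9473 to 14205 CPM under anti-sclerostin and from 7073 to 14698 under PTH, with a log2FC of 0.086 (standard error 0.32) that turned negative with read totals, with scaling to the extraction controls and with the hemolysis covariate.

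Of the last 3, miR-450a-5p and miR-30e-3p moved by less than 1.5 times without PTH rat 3, and miR-28-5p had too few reads to be tested without it. MiR-450a-5p, of an X-linked cluster, was at 0, 31.3, 72.6 and 119.9 CPM under anti-sclerostin and at 184, 145.4, 17.0, 178 and 126.2 under PTH. Here PTH rat 3 was the lowest of its arm, and the other 4 lay above every anti-sclerostin rat (log2FC −1.28, standard error 0.74, and −1.54 without PTH rat 3). MiR-30e-3p was at 493, 198, 152 and 139.9 CPM against 593, 251, 749.6, 204 and 513 (log2FC −0.90, standard error 0.56), with anti-sclerostin rat 1 just below the high PTH rats. Without that rat its log2FC was −1.46, and without PTH rat 3 it was −0.68. MiR-28-5p was at 68.5, 104, 72.6 and 60.0 CPM against 184, 66.1, 119, 161 and 94.7 (log2FC −0.69, standard error 0.47). All 10 kept the sign of their log2FC under every alternative that could test them.

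**Figure D3:**
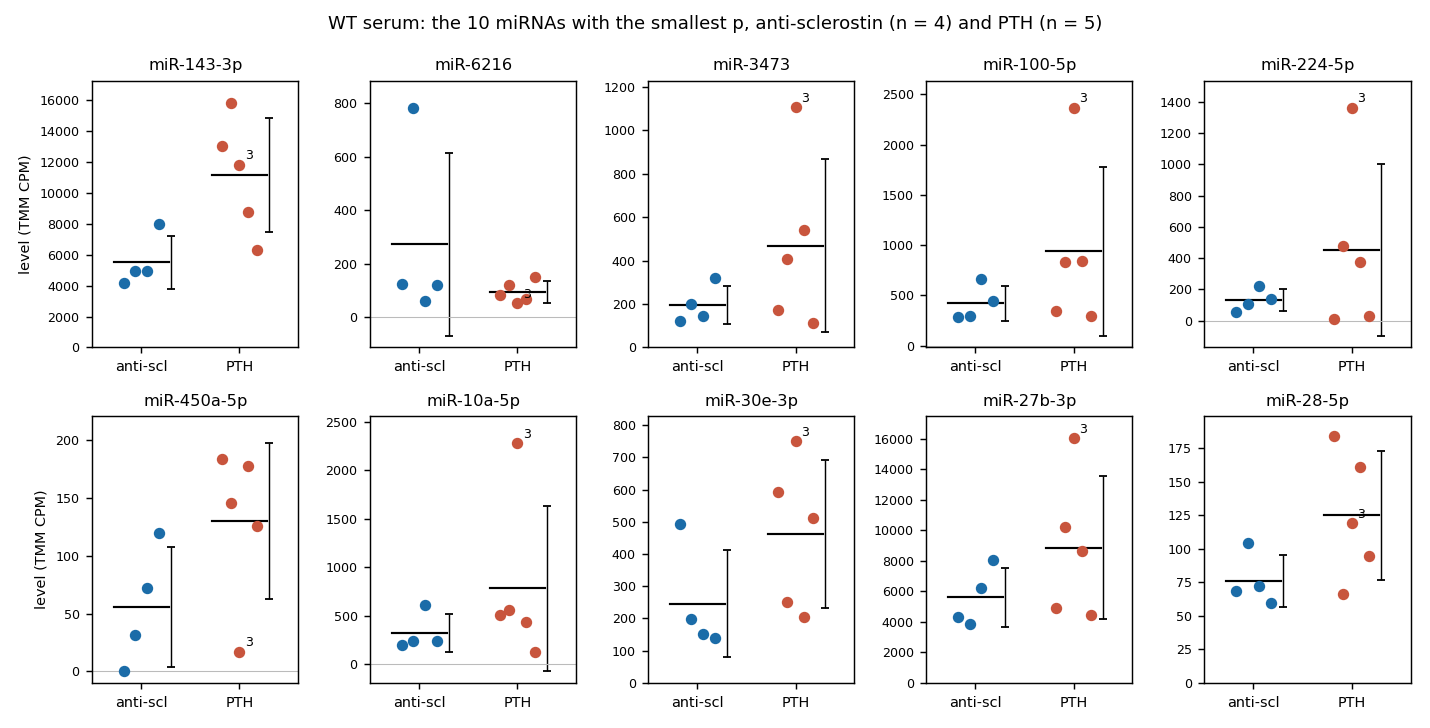
Levels (y axis, TMM CPM, linear) of the 10 leading miRNAs in each rat given anti-sclerostin (blue, n = 4) or PTH (red, n = 5). Horizontal lines are means, vertical bars are SD, and PTH rat 3 is marked, which is the highest point in 6 of the 10 panels.

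The placebo-treated WT rats gave a level for each drug to be set against. Their earlier experiments included that of the PTH rats but not that of the anti-sclerostin rats, so anti-sclerostin against placebo cannot be told apart from the original experiment. These comparisons share the placebo rats with each other and the treated rats with the comparison above, so values are only set side by side. MiR-143-3p ranged from 7927 to 20817 CPM in placebo rats (median 10469, scaled over all 14 WT sera). On the same scale it ran from 3858 to 7925 under anti-sclerostin, where the highest rat lay just below the lowest placebo rat, and from 6467 to 16459 under PTH. The log2FC against placebo was −1.29 (standard error 0.39, edgeR FDR 0.245) for anti-sclerostin and −0.17 (standard error 0.38, edgeR FDR 0.992) for PTH.

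Anti-sclerostin against placebo gave 0 of 171 miRNAs (0%) at FDR < 0.2 in edgeR and 18 (10.5%) at an unadjusted p under 0.05. DESeq2 called 5, miR-143-3p, miR-199a-3p, miR-3473, miR-450a-5p and miR-451-5p, all lower under anti-sclerostin. PTH against placebo gave 0 of 170 (0%) in edgeR with 2 (1.18%) at an unadjusted p under 0.05, and 0 in DESeq2. MiR-3473 had a log2FC against placebo of −1.83 under anti-sclerostin and −0.47 under PTH. For miR-450a-5p it was −2.16 and −0.84. MiR-199a-3p, which is abundant in mesenchymal cells, had −2.03 and −1.27, and miR-451-5p, the main red blood cell miRNA, −1.99 and −1.42. In all 4 of these pairs both arms had a negative value. The hemolysis ratio defined above had a mean of 1.495 ± 1.70 (SD, n = 5) on the log2 scale in the placebo rats and reached 3.297. This mean is above the −0.45 and 0.35 of the drug arms, and its part in these values was not tested. Between the 2 drugs, miR-199a-3p ranged from 27.4 to 436 CPM under anti-sclerostin and from 47.3 to 749.6 under PTH (log2FC −0.67, standard error 0.80, and −0.040 without PTH rat 3). MiR-451-5p ranged from 7037 to 38053 CPM and from 10966 to 44197 (log2FC −0.53, standard error 0.50), and its log2FC was −1.24 without anti-sclerostin rat 4 and −0.21 without PTH rat 2. Neither difference was larger than the spread within the arms.

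In ulna bone of placebo-treated WT rats (n = 4), 4 of the 10 leading miRNAs were above the range of placebo serum and 0 below it, with both tissues scaled together. Over the 166 miRNAs, 41 (24.7%) lay above and 58 (34.9%) below the serum range without overlap. MiR-143-3p was at 26913 to 105743 CPM in bone and 7449.9 to 20258 in serum. MiR-100-5p was at 4407 to 5351 in bone and 298 to 2189 in serum, and miR-199a-3p at 6787 to 22668 in bone and 274 to 1271 in serum. MiR-27b-3p was at 17250.0 to 22871 in bone and 4654 to 16061 in serum, and miR-28-5p at 415 to 642 in bone and 34.4 to 166 in serum. Of these 5, miR-199a-3p is not among the leading 10. MiR-6216 was at 0 to 2.48 CPM in bone, although 1 serum reached 699 CPM. The series holds no bone of rats given anti-sclerostin, and bones of WT rats given PTH were not compared here.

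A set of 16 lists of marker and bone-related miRNAs were described by their tested members, beside the median log2FC of 0.0074 over all 166. No member of any list passed (0% of all miRNAs did), and no member had arms without overlap. With scaling to the extraction controls the median over all miRNAs was −0.51, and with read totals −0.12, and list medians under these scalings stand against these shifts.

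The lists tied to bone cells had medians near that of all miRNAs. Of 7 tested osteoblast regulators, which act on the genes of bone formation, 5 had a negative and 2 a positive log2FC (median −0.15, and 0.0055 over the 6 tested without PTH rat 3). MiR-26a-5p, which acts in osteoblast differentiation, was at 4013 to 7015 CPM under anti-sclerostin and 3715 to 9353 under PTH (log2FC −0.15, standard error 0.36). Of 5 tested osteoclast regulators 3 were positive and 2 negative, with a median of 0.12 that was −0.60 with extraction-control scaling. MiR-21-5p, which promotes osteoclast formation, was at 31658 to 45539 CPM against 24155 to 48454 (log2FC 0.12, 95% interval −0.59 to 0.82). MiR-125a-5p was at 575 to 2594 CPM against 465 to 5929 (log2FC −0.77, and −0.17 without PTH rat 3). MiR-148a-3p had a log2FC of 0.18 (standard error 0.41). In the miR-29 family, which represses collagens and other matrix genes, all 3 tested members were negative with a median of −0.083. MiR-29a-3p had a log2FC of −0.083 with 95% limits of −0.74 and 0.57, at 34536 to 48814 CPM against 33462 to 51290. MiR-29c-3p had a log2FC of −0.60, at 5627 to 11152 CPM against 6730 to 19810. With each library left out it ran from −0.87 to −0.37.

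Both mature strands of miR-140, a miRNA of cartilage, were tested (median log2FC 0.053, or −0.39 with extraction-control scaling), with values of opposite sign. MiR-140-3p was at 47217, 39024, 43137 and 44749 CPM under anti-sclerostin and at 33144, 24842, 26748, 19063 and 52859 under PTH. It was higher in every anti-sclerostin rat than in 4 of the 5 PTH rats (log2FC 0.47, standard error 0.35, exact permutation p = 0.103), although extraction-control scaling gave −0.016. MiR-140-5p was at 233, 188, 218 and 159.9 CPM against 307, 225, 256, 272 and 237. The arms met only between 225 and 233 CPM, with a log2FC of −0.37 (standard error 0.41, edgeR FDR 0.977) and an exact permutation p of 0.0317. This was the same smallest exact p as for miR-143-3p, and 2 of the 166 reached an exact p under 0.05.

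As is usual for serum, miRNAs of blood cells made up much of the reads. The red blood cell list (9 tested) was balanced, with 6 positive and 3 negative values and a median of 0.084, or −0.59 with extraction-control scaling. Its members together took 21.5 to 33.1% of miRNA reads under anti-sclerostin and 22.0 to 36.5% under PTH. MiR-92a-3p had a log2FC of 0.52 (standard error 0.50), or 0.047 without anti-sclerostin rat 1, miR-25-3p −0.11, and miR-486 0.084. The last 2 changed sign under other settings. The leukocyte list had 7 of 8 tested members above zero, with a median of 0.36, which was −0.049 with extraction-control scaling but then 0.47 above the median of all miRNAs. MiR-223-3p, of neutrophils and monocytes, ranged from 18978 to 43138 CPM under anti-sclerostin and from 10342 to 29846 under PTH (log2FC 0.44, standard error 0.40, and 0.085 without anti-sclerostin rat 2). MiR-142-5p (log2FC 0.41, standard error 0.34) and miR-342-3p (log2FC 0.37, standard error 0.37, and 0.17 without PTH rat 3) had intervals that included zero as well. For the platelet list, which shares 6 of its 11 members with other lists, 7 of 9 tested members were positive, with a median of 0.27, or −0.072 with extraction-control scaling. MiR-191a-5p, the most abundant of all miRNAs in 7 of the 9 libraries, was at 100770 to 294894 CPM against 66183 to 311792 (log2FC 0.31, standard error 0.53). Its log2FC ran from 0.073 without anti-sclerostin rat 1 to 0.65 without PTH rat 5, and was 0.14 without PTH rat 3. MiR-24-3p had a log2FC of 0.16 (standard error 0.42).

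All 4 tested endothelial miRNAs had a negative log2FC (median −0.39, and −0.24 without PTH rat 3). MiR-126a-5p was at 3076 to 11052 CPM under anti-sclerostin and 2487 to 12877 under PTH (log2FC −0.34, standard error 0.48, and −0.57 without PTH rat 3). MiR-126a-3p had a log2FC of −0.26 (standard error 0.40, and −0.42 without PTH rat 3). MiR-221-3p was at −0.44 (standard error 0.41) and at −0.051 without PTH rat 3, which held 4907 CPM against 1666 to 2062 in the other PTH rats. The 2 tested members of the list of miR-143 and miR-145 were negative (median −0.71), and of the 3 of the list of miR-199a and miR-214 2 were positive (median 0.049, or −0.84 with extraction-control scaling). MiR-214-3p was at 233 to 762 CPM against 181 to 976 (log2FC 0.092, standard error 0.55).

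Liver and muscle markers had the lowest list medians. Of 4 tested hepatocyte miRNAs 3 were negative (median −0.89, and −1.20 without PTH rat 3). MiR-122-5p, the main liver miRNA, was at 301, 188, 158 and 99.9 CPM under anti-sclerostin and at 1207, 463, 85.2, 187 and 78.9 under PTH. A single PTH rat stood far above all others, and the log2FC of −1.10 (standard error 0.76) was −0.11 when it was left out. MiR-122-3p was at 119 ± 64.4 CPM (SD, n = 4) against 229 ± 209 (SD, n = 5). MiR-802-5p (log2FC −0.78, standard error 0.81) ranged from 0 to 793 CPM within the PTH arm. MiR-192-5p was near zero, at 0.17 (standard error 0.56). The list took 0.325 to 0.955% of miRNA reads under anti-sclerostin and 0.0789 to 0.891% under PTH.

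In the striated muscle list only miR-133a-3p and miR-133b-3p had enough reads to be tested. MiR-133a-3p was at 11112, 5377, 11208 and 2418 CPM under anti-sclerostin and at 655, 13763, 41911, 11687 and 3148 under PTH. PTH rat 3 was the highest, and the log2FC of −0.92 (standard error 0.82) became 0.044 without it. MiR-133b-3p went from −1.05 (standard error 0.89) to −0.58. The muscle miRNAs miR-1-3p, miR-206-3p and miR-499-5p had 38, 3 and 37 reads in all 9 libraries together, and 5 of the 16 list members had none.

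The pancreas, epithelial, let-7 and proliferation lists had medians near that of all miRNAs, which moved with PTH rat 3. Of the pancreas list (median 0.12, and −0.086 without PTH rat 3), miR-375-3p of islet cells was at 574 to 1539 CPM under anti-sclerostin and 409 to 1912 under PTH (log2FC −0.17, standard error 0.47), and miR-7a-1-3p had a log2FC of 0.40 (standard error 0.42), or 0.21 without PTH rat 3. The 2 tested members of the epithelial miR-200 list had a median of −0.0069, and of 0.96 without PTH rat 3. The let-7 family had 6 negative and 5 positive values among 11 tested (median −0.14, and 0.33 over the 10 tested without PTH rat 3). Let-7a-1-3p and let-7c-2-3p, 2 of the 11, had identical levels in all 9 libraries, so they amount to 1 measurement under 2 names. Let-7c-5p was at 1908 CPM in PTH rat 3 and at 181 to 289 in the other PTH rats, so its log2FC of −0.77 turned to 0.45 without that rat. For let-7f-5p it went from −0.29 to 0.27, and for let-7g-5p from −0.40 to −0.0019. The proliferation-linked miR-17-92 cluster and its paralogs had 7 positive and 5 negative values among 12 tested (median 0.039, or −0.28 with extraction-control scaling).

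**Figure D4:**
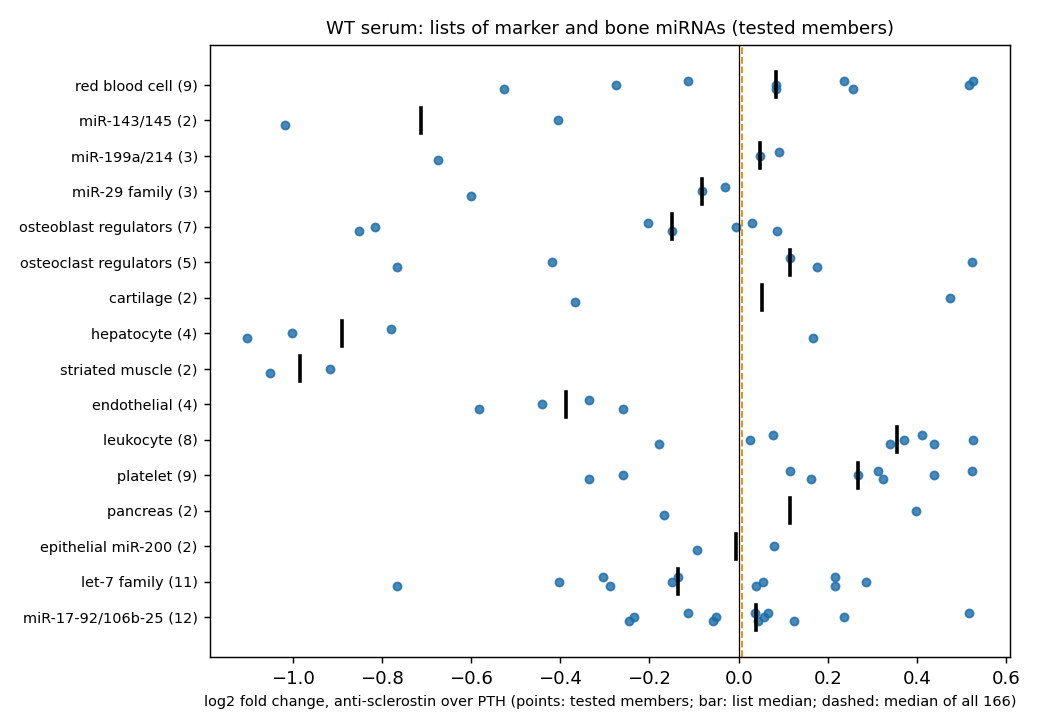
Log2 fold change of anti-sclerostin over PTH (x axis) for the tested members (points) of 16 lists (y axis, number tested in brackets), with the list median as a black bar and the median of all 166 miRNAs (0.0074) as a dashed line. The hepatocyte and striated muscle lists and that of miR-143 and miR-145 have the lowest medians, and no point passed the test.

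A further 306 miRNAs had at least 1 of the reads of these 9 libraries but too few to be tested. They held 0.542% of the miRNA reads, and 118 of them had 3 reads or fewer in total. No miRNA was seen in all libraries of one drug and none of the other. MiR-218a-1-3p had 1 read in each of 3 anti-sclerostin libraries and none under PTH. MiR-146a-3p, miR-208a-5p, miR-24-1-5p, miR-3585-3p and miR-488-3p had 1 to 4 reads in 3 or 4 PTH libraries and none under anti-sclerostin. These 6 were named after their values were seen, and such counts are too low to compare. MiR-217-5p, an acinar pancreas miRNA also named after its values were seen, had 0, 1, 8 and 38 reads under anti-sclerostin and 0, 0, 8, 2 and 0 under PTH.

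The same contrast in ZDF serum used other rats (4 and 5), in diabetic animals. Its arms came from the same 2 separate earlier experiments as the WT arms, so a like sign in both genotypes does not tell the drug from the experiment. It gave 1 of 163 miRNAs (0.613%) at FDR < 0.2, miR-143-3p, which was lower under anti-sclerostin than under PTH. A further look at unadjusted values gave 14 (8.59%) at p under 0.05 in edgeR, and for 3 (1.84%) the arms did not overlap. Its levels were 8713, 2029, 2115 and 3970.0 CPM under anti-sclerostin and 64993, 22033, 18027, 8698 and 25181 under PTH. The highest anti-sclerostin rat just reached the lowest PTH rat (log2FC −2.73, standard error 0.64, edgeR FDR 0.134). The call was lost (edgeR FDR 0.242 to 0.684) without each of PTH rats 1, 2 and 5 and anti-sclerostin rats 2, 3 and 4 in turn, and kept without each of the other 3. Where it was lost the log2FC was −2.13 to −2.83.

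Among the 158 miRNAs tested in both genotypes, 89 (56.3%) had a log2FC of the same sign, with a Pearson r of 0.306 and a Spearman rho of 0.277 across miRNAs, which are not independent replicates. Of the 9 leading miRNAs tested in both, all 9 had a negative log2FC in ZDF serum too. They were from −0.27 for miR-28-5p to −1.74 for miR-30e-3p and −2.73 for miR-143-3p. These 9 signs are not separate results, as some of the miRNAs rose together. In ZDF serum miR-100-5p, miR-224-5p, miR-10a-5p, miR-27b-3p and miR-3473 were each highest in anti-sclerostin rats 1 and 4 and PTH rats 1 and 3. The median size of the log2FC was 0.31 in WT and 0.53 in ZDF rats. ZDF anti-sclerostin libraries held 28015 to 150605 miRNA reads, and ZDF PTH libraries held 65498 to 104745. Their log2 hemolysis ratio had a mean of −0.071 ± 1.16 (SD, n = 4) under anti-sclerostin and of 1.31 ± 2.03 (SD, n = 5) under PTH. The part of depth and hemolysis in the ZDF values was not tested.

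The difference between the genotypes was tested by an interaction term. No miRNA of 182 (0%) passed FDR < 0.2 in edgeR, where 6 (3.3%) had an unadjusted p under 0.05, and none did in DESeq2, with 9 at an unadjusted p under 0.05. MiR-193a-3p ranked first, with a log2FC of −0.71 in WT and 1.43 in ZDF rats (interaction −2.22, standard error 0.81, edgeR FDR 0.937). MiR-22-3p had −0.32 and 0.83 (interaction −1.24, standard error 0.45, edgeR FDR 0.937). For miR-143-3p the interaction was 1.63 (standard error 0.72, edgeR FDR 0.937), so the size of its difference was not shown to depend on the genotype.

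**Figure D5:**
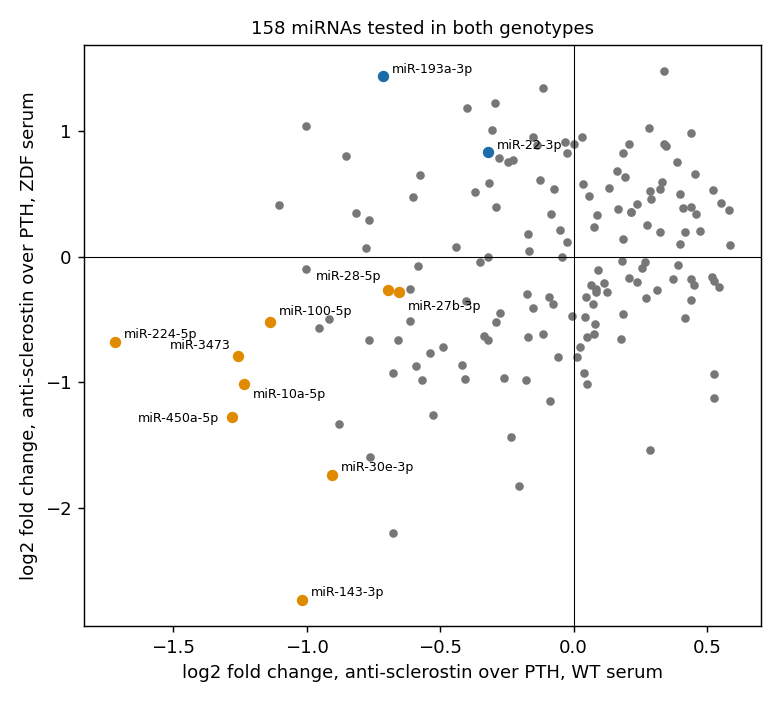
Log2 fold change of anti-sclerostin over PTH in WT serum (x axis) and in ZDF serum (y axis) for the 158 miRNAs tested in both. Orange points are the leading miRNAs of WT serum, all 9 in the lower left, and blue points are miR-193a-3p and miR-22-3p, which ranked first for the interaction.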

How the data were processed

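A small RNA library was sequenced from the serum of each rat. Per the study's methods, the authors removed adapters with cutadapt, discarded reads under 17 nt and assigned the rest with bowtie and miRDeep2, using the rat genome and miRBase. For each of 763 mature miRNAs they deposited the raw read count. Deposited RPM values, which refer to every read in a library, were used here for library totals alone. Counts of 3 extraction controls and 7 other synthetic controls were kept apart.

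R 4.3.3 was used with edgeR 4.0.16, limma 3.58.1 and, as an alternative, DESeq2 1.42.0. Only the libraries compared entered a fit. filterByExpr (minimum count 10) left 166 of 472 detected miRNAs. Libraries were scaled by TMM, and the two-sided quasi-likelihood test of edgeR was used at FDR < 0.2, with the legacy dispersion method and no robust option. Levels are TMM CPM, and log2FC come from the fit. Single values were compared by an exact permutation test of log2(CPM + 1), whose smallest p is 0.00794. Named miRNAs are the 10 with the smallest p-values, at most 4 abundant members of each list, 6 named earlier for anti-sclerostin against placebo, and at most 3 with the smallest interaction p-value. Exceptions are stated. The groups, members and lists were chosen with earlier results of these data known. The scripts were tested on simulated data. No library of the 2 WT arms was a copy of another of its own arm. The 16 pairs within these arms gave a chi-squared statistic of 34.7 per degree of freedom or more. Pairs between the arms and the other libraries were not checked in this way. P-values set the difference between groups against the spread among libraries, 1 per rat, which holds both animal and technical variation. Alternatives were other scalings, filters, tools and thresholds, more groups in the fit, a hemolysis covariate and leaving out each library.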

Additional observations from a re-analysis of the deposited data

Results flagged for a closer look

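Dixon's test at 95% was run on 110 sets of values. These were the named miRNAs and 8 library measures, each in the 4 anti-sclerostin and the 5 PTH libraries. In 14 sets 1 library lay farther from the others than the test allows, each time as the highest. Chance gives about 1 in 20 for independent, normally distributed values. The levels were not log-transformed and many sets are related, so the number that chance gives here is not known. PTH rat 3 accounted for 6 of the 14. It was at 2368 CPM for miR-100-5p (292 to 840.3 in the other PTH rats), 2283 for miR-10a-5p (126.2 to 555), 4907 for miR-221-3p (1666 to 2062), 36153 for miR-24-3p (14469 to 19717) and 1908 for let-7c-5p (181 to 289). Its ratio of miRNA reads to extraction control reads was 0.850 against 0.0878 to 0.257.

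PTH rat 5 was high for miR-142-5p, at 9231 CPM (3874 to 4890 in the others). Of the rats given anti-sclerostin, rat 2 was high for miR-6216 at 783 CPM (59.4 to 123), miR-223-3p at 43138 (18978 to 20375) and let-7f-5p at 2693 (839 to 1129). Rat 3 was high for miR-10a-5p at 614 CPM (192 to 240.1) and miR-29a-3p at 48814 (34536 to 36201). Rat 1 was high for miR-30e-3p at 493 CPM (139.9 to 198), and rat 4 for miR-221-3p at 2618 CPM (1524 to 1617). No difference between the genotypes passed its test.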

How the results depend on the processing

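No paired analysis was possible because no replicate number in the labels links a rat of one arm to a rat of the other.

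Between the drugs in WT serum, edgeR gave 1 call in place of 0 with no filter beyond 1 read, and likewise with independent filtering on that set. It was miR-217-5p (log2FC 2.88, standard error 0.75, FDR 0.0406), whose reads came mostly from 1 rat. All other settings gave 0, with 0 to 0 when each library was left out. In ZDF serum the count of 1 became 0 with DESeq2's size factors, with read totals and at FDR < 0.05, 9 with no filter, and 0 to 3 when each library was left out (3 without anti-sclerostin rat 1, 2 without PTH rat 3). Anti-sclerostin against placebo went from 0 to 5 in DESeq2, 11 with no filter and 0 to 9 with each library left out (9 without placebo rat 1, 8 without placebo rat 2, 1 without anti-sclerostin rat 3). PTH against placebo went to 1 with no filter (miR-192-3p) and 0 to 1 with each library left out (miR-802-5p without PTH rat 3). In earlier simulated data without any difference, fits with no filter gave at least 1 call in many more runs than filtered fits. Filtered fits gave calls in some of these runs as well. The counts with no filter are therefore weak. The cause of these changes was not tested.

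Of the 1022 alternative values of 47 named miRNAs, 982 kept their sign and stayed above FDR 0.2, and 40 changed sign. In size, 40 of the 47 moved by over 1.5 times or changed sign without at least 1 library. With scaling to the extraction controls the log2FC was −0.79 for miR-486, −0.43 for miR-214-3p, −0.29 for miR-27a-3p, −0.60 for miR-21-5p, −0.14 for miR-148a-3p, −0.016 for miR-140-3p, −0.014 for miR-142-5p and −0.79 for miR-24-3p. With read totals it was −0.11 for miR-486, −0.095 for miR-214-3p and −0.0085 for miR-27a-3p. With all serum groups in the fit miR-486 was at −0.035. With the hemolysis covariate it was 0.12 for miR-25-3p, −0.13 for miR-27a-3p, −0.080 for miR-191a-5p and 0.0077 for miR-375-3p. With each library left out, values ran from −0.25 to 0.46 for miR-486, −0.49 to 0.13 for miR-25-3p, −0.19 to 0.57 for miR-214-3p, −0.21 to 0.0047 for miR-29a-3p, −0.39 to 0.065 for miR-26a-5p, −0.059 to 0.17 for miR-27a-3p, −0.072 to 0.48 for miR-148a-3p, −0.19 to 0.54 for miR-192-5p, −1.30 to 0.044 for miR-133a-3p, −0.24 to 0.45 for miR-24-3p, −0.51 to 0.12 for miR-375-3p, −0.80 to 0.27 for let-7f-5p and −1.40 to 0.45 for let-7c-5p.

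Library measures changed sign as well, as log2 differences of anti-sclerostin minus PTH with each library left out, from −0.27 to 0.32 for miRNA reads, −0.34 to 0.11 for total reads, −0.14 to 0.48 for the miRNA share, −0.39 to 0.62 for extraction control reads, −0.61 to 0.21 for their ratio, −0.082 to 0.042 for miRNAs detected and −0.14 to 0.059 for miRNAs with more than 10 reads. Without the log2 scale the difference in extraction control reads was −47054. With 4 and 5 rats and a median standard error of 0.50 on the log2 scale, the 95% interval reached beyond a 2-fold difference for 143 of 166 miRNAs.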
